A study of Rattus norvegicus with 15 samples.

Results

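Immediate early genes are the genes that a cell transcribes first after a stimulus, without making new protein beforehand. A set of 10 such genes and close partners was described in rat kidney: Fos, Jun, Junb, Egr1, Nr4a1, Btg2, Atf3, Dusp1, Myc and Klf3. Members were all probe sets whose platform gene symbol was one of these names, which gave 27 of 26379 probe sets on 3 array designs (21 of 8799 on design A, with 3 of 8791 for design B and 3 of 8789 for design C). They cover 9 of the 10 genes, among 10970 genes named on the arrays. No probe set carried the symbol Btg2 in the annotation used, and that gene was not analysed here. The counts of probe sets per gene were 5 for Fos, 4 each for Jun, Egr1 and Dusp1, 3 for Klf3, 2 each for Junb, Nr4a1 and Myc, and 1 for Atf3. Of the 27, 19 passed the filter on low signal (16 for design A, 2 for B, 1 for C): both Myc probe sets, 3 of 5 for Fos, 2 of 4 for Egr1 and the Dusp1 probe set of design B were below it and were described but not tested.

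Total RNA from kidneys of rats 5 weeks old was hybridised to 15 single-channel oligonucleotide arrays, 5 of each design, numbered as kidneys 1 to 5. On designs B and C, kidneys 4 and 5 are labelled as congenic for chromosome 10 (n = 2 per design), that is, as carrying a stretch of that chromosome from another strain on the Dahl salt-sensitive background, and kidneys 1 to 3 as the Dahl salt-sensitive strain itself (Dahl S, n = 3 per design), an inbred line that becomes hypertensive on salt. On design A all 5 kidneys are described as Dahl S, but numbers 4 and 5 are those of the congenic kidneys elsewhere, so the strain of these 2 arrays was treated as unsettled and no strains were compared there. Every group shares the Dahl background and the age, and the labels name no treatment, diet, sex, donor strain or extent of the segment. They also do not say whether kidneys came from separate animals or were pooled, or how and how fast they were taken, so a p-value reflects the scatter of these arrays alone, part of which may be technical.

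Protein kinase cascades set off by growth factors, hormones, ischaemia or handling of a tissue act on factors already bound at the promoters of these genes, and their mRNAs appear within minutes and decay quickly. Fos and Jun proteins pair to form AP-1, a transcription factor, and Atf3 and Junb can join such pairs; Egr1 and Nr4a1 are transcription factors of the zinc finger and nuclear receptor families, and Myc drives growth genes. Dusp1 is a phosphatase that switches MAP kinases off again, and Klf3 is a transcriptional repressor of the Krüppel-like family. In kidney this response is known from ischaemia, from osmotic and hormonal stimuli and from the removal of the organ itself.

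The upstream sequences of 3 members are shown first, picked because they share one short motif, which is therefore no result about them. They are the 250 bases before the annotated start on the plus strand, from RefSeq on rat build GRCr8, whose promoter table held 6 of the 10 genes (Junb, Egr1, Nr4a1, Btg2, Dusp1 and Klf3). Capitals mark TGACG or its complement CGTCA, the core that CREB and ATF factors recognise, searched on both strands; in Dusp1 one match overlaps its own complement in the palindrome TGACGTCA. The sequences run 5′ to 3′.
Dusp1 chr10:17184603-17184852: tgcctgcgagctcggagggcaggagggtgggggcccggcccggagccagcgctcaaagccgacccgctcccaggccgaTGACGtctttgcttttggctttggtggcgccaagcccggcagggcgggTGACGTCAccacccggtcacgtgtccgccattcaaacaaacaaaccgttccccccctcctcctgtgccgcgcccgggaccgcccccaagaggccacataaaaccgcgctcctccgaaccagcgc
Nr4a1 chr7:134259888-134260137: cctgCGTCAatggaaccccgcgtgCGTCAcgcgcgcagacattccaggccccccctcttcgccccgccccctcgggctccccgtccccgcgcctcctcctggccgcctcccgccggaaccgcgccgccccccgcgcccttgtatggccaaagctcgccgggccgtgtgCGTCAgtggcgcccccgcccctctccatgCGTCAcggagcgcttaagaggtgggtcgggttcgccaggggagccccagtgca
Junb chr19:40080876-40081125: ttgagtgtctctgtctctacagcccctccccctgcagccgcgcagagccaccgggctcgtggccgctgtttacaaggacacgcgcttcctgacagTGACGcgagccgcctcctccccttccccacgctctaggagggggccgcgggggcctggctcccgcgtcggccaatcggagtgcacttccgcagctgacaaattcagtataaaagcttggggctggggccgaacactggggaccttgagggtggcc
The Dusp1 window, on the chromosome that also carries the congenic segment, held 3 matches, the Nr4a1 window held 4 and the Junb window 1. Egr1 and Btg2 had 2 matches each and Klf3 had none, so 5 of 6 members held at least 1. Over all 33469 promoters of the table, 18.2% of windows of the same length held TGACG or its complement and 1.59% held TGACGTCA. The CArG box, the motif of serum response factor, was found in Egr1 alone of the 6, where it matched 2 times, and in 501 of the 33469 promoters. A match of letters is a description of these windows and not a measured binding site.

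Values are the deposited signal intensity of a probe set, on a linear scale that is the same for the 5 arrays of a design, and levels were compared between kidneys for 1 probe set at a time. Probes of a set whose name ends in _s_at or _g_at can also match related sequences. A floor was set at the 25th percentile of a design's values (85.1 for design A, 140.1 for B, 153.6 for C), and signal below it has no order on the log2 scale. A probe set was tested if its mean reached the median of the design (319.5 for design A, 485.8 for B, 510.3 for C). Each array had been brought to one scale before deposit, as the mean after trimming 2% at each end was between 999.47 and 999.98 on all 15. The median signal was 294.5 to 334.3 for design A, 472.8 to 519.5 for B and 491.3 to 524.4 for C. GAPDH control signal at the 3′ end divided by that at the 5′ end, a sign of RNA integrity, was between 1.04 and 1.18 on all arrays, and the same ratio for beta-actin was between 1.23 and 1.55. Markers of kidney were present: on A all 9 of the 9 genes that had a probe set, among 12 listed, were tested, with a summed signal of 174071 to 232660.

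Fos, the AP-1 subunit that is the classic immediate early gene, had more signal in kidneys 1 and 5 than in kidneys 2 and 4 on array A, in each of its 3 probe sets. Probe set X06769cds_g_at measured 1694.6, 1586.5, 1223.9, 1464.3 and 1681.2 in kidneys 1 to 5, with a mean of 1502 ± 247 in the Dahl S kidneys (SD, n = 3). Probe set X03347cds_g_at measured 410.5, 289.0, 407.2, 262.4 and 412.8, so that kidney 3 stood level with kidneys 1 and 5 while kidneys 2 and 4 were lower. The dim probe set X06769cds_at measured 254.8, 41.4, 104.3, 81.7 and 180.5, with kidneys 2 and 4 below the floor. Kidney 3 changed its place from one probe set to another. The symbol of X03347cds_g_at is that of the platform annotation, and its source sequence may be a viral relative of Fos, so its signal may not be that of rat Fos alone. In bulk RNA such as this, fewer cells of a type and less RNA per cell cannot be told apart.

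On array C, Fos was dim. Probe set rc_AI176185_at measured 165.2 and 240.5 in congenic kidneys 4 and 5, against 349.1, 209.4 and 208.9 in Dahl S kidneys 1 to 3. The means were 202.9 ± 53.2 in congenic kidneys (SD, n = 2) and 255.8 ± 80.8 in Dahl S kidneys (SD, n = 3), and the ranges overlap. Its mean was below the filter, and in the fit without a filter the log2 difference was −0.32 (limma adjusted p = 1). That difference was −0.04 without congenic kidney 4, −0.07 without Dahl S kidney 1, −0.59 without congenic kidney 5 and −0.01 with the floor at the 40th percentile. Probe set rc_AI072183_at measured 22.7 and 98.3 in congenic and 91.7, 25.1 and 31.6 in Dahl S kidneys, all below the floor.

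Jun, the usual partner of Fos, varied little. Probe set rc_AI175959_at measured 1686.3, 1668.8, 1681.4, 1447.8 and 1623.1 on array A, with 1679 ± 9.03 in Dahl S kidneys (SD, n = 3), and its log2 range of 0.22 was narrow: 93.9% of the tested probe sets of A had a range at least as wide. Kidney 4 alone made that range, which was 0.06 without it. Probe set X17163cds_s_at measured 625.6, 508.0, 691.5, 631.7 and 582.5, rc_AA945867_at measured 395.1, 375.2, 501.8, 412.8 and 508.2, and rc_AA944014_at measured 345.1, 318.3, 372.1, 342.4 and 338.6. Kidney 2 was lowest in each of these 3 and kidney 3 highest in 2 of them.

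Junb, a relative of Jun that often restrains it, shared the low value of kidney 2. Probe set rc_AA891041_at measured 543.2, 362.5, 642.4, 468.1 and 602.2 (516 ± 142 in Dahl S, SD, n = 3), a log2 range of 0.83 that was 0.46 without kidney 2. Probe set X54686cds_at measured 996.3, 766.8, 922.1, 757.8 and 855.9, with kidneys 2 and 4 at the low end. Atf3, a stress-induced member of the ATF/CREB family, measured 385.6, 354.5, 364.6, 317.3 and 467.0 on its 1 probe set, highest in kidney 5 and lowest in kidney 4. Its log2 range of 0.56 was 0.28 without kidney 5.

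Egr1, an early zinc finger factor, was highest in kidney 5 in 3 of its 4 probe sets on array A. Probe set AF023087_s_at measured 1281.1, 1132.5, 1217.1, 1388.0 and 1602.8, and its log2 range of 0.50 was 0.29 without kidney 5. Probe set U75398_s_at measured 398.8, 462.8, 544.7, 397.1 and 570.3. The other two, both under the filter, went different ways: M18416_at measured 309.6, 268.0, 242.1, 289.2 and 379.8, while rc_AI176662_s_at measured 243.8, 276.6, 273.6, 274.2 and 235.5 and was lowest in kidney 5. Nr4a1, an orphan nuclear receptor, had a probe set with its low values in kidneys 1 and 5, where Fos had high ones: U17254_at measured 336.2, 463.7, 419.3, 428.0 and 325.5. Its second probe set, U17254_g_at, measured 485.1, 505.6, 555.8, 568.0 and 506.2, with a log2 range of 0.23.

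Dusp1, the MAP kinase phosphatase, varied most among the members, and its high kidney was number 4. Probe set U02553cds_s_at measured 407.8, 224.9, 241.8, 709.6 and 175.3 in kidneys 1 to 5 of array A, with 291.5 ± 101 in the Dahl S kidneys (SD, n = 3). Its highest value was 4.05 times its lowest, a log2 range of 2.02 that 1.31% of tested probe sets reached and that was 1.22 without kidney 4. The other Dusp1 probe sets were also highest in kidney 4: S74351_s_at measured 292.9, 367.4, 329.9, 463.9 and 214.6, and S81478_s_at measured 391.2, 339.8, 267.1, 425.7 and 363.1. Kidney 5 was lowest in 2 of the 3 and kidney 3 in the third. On array B its probe set rc_AA955855_at measured 119.9 and 68.3 in congenic kidneys and 147.3, 59.2 and 66.2 in Dahl S kidneys, of which 4 of 5 were below the floor.

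Myc was dim. Probe set Y00396mRNA_g_at measured 288.2, 171.0, 272.0, 158.4 and 280.3 on array A (243.7 ± 63.5 in Dahl S, SD, n = 3), so kidneys 2 and 4 were low and the other 3 close together, and its log2 range was 0.86. Probe set Y00396mRNA_at measured 114.7, 21.7, 28.3, 23.1 and 35.4, above the floor in kidney 1 alone.

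**Figure D1:**
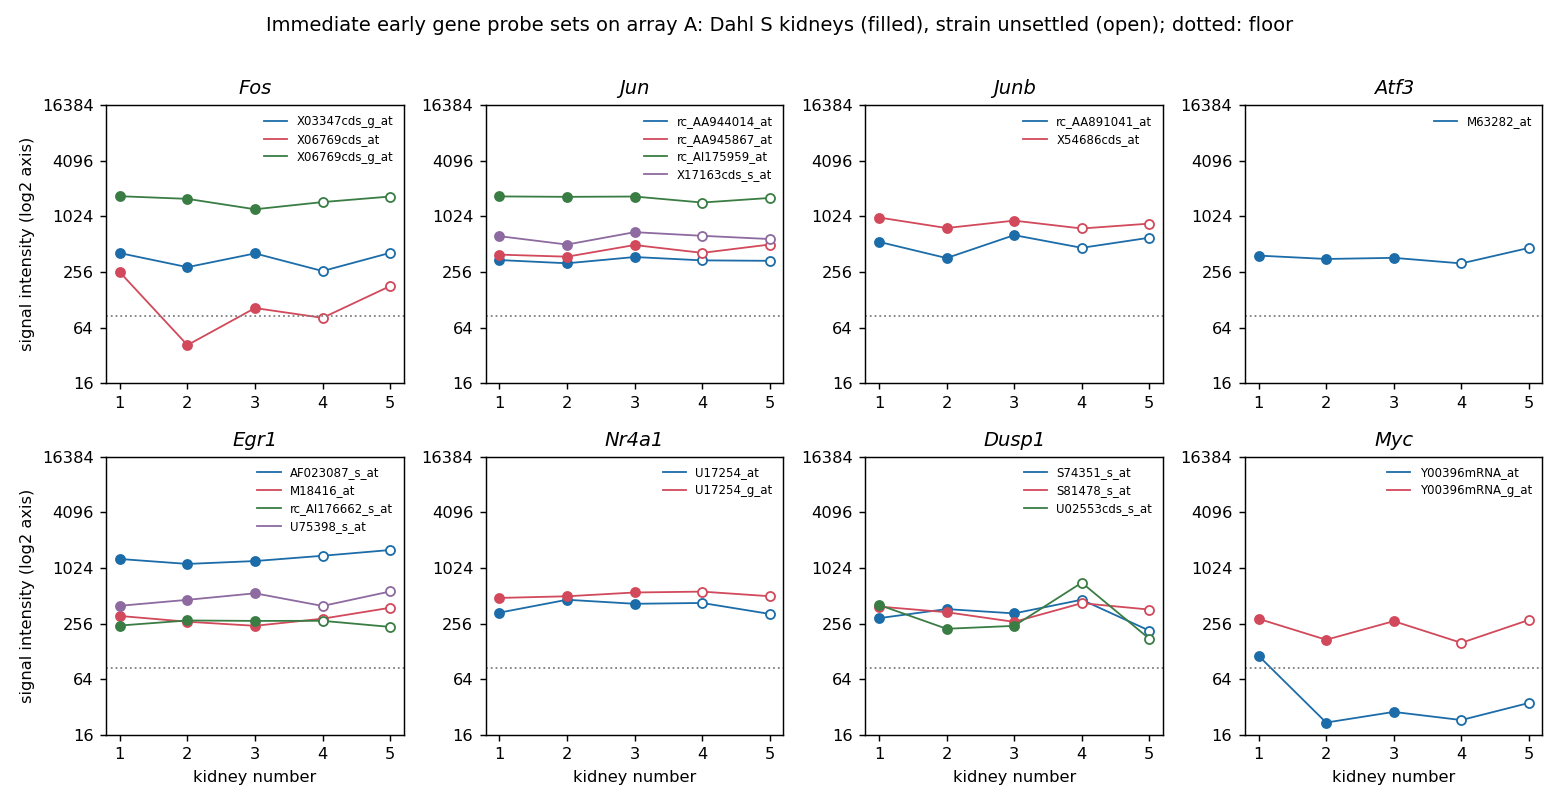
Signal intensity (log2 axis) of the 21 member probe sets of array A in kidneys 1 to 5, 1 array per kidney and 1 panel per gene. Filled points are Dahl S kidneys, open points are the 2 kidneys of unsettled strain and the dotted line is the floor of 85.1. The Dusp1 probe sets peak in kidney 4, while Fos and Myc have kidneys 2 and 4 at their low end in most probe sets.

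The spread of the members between kidneys was close to that of other probe sets. On array A the median log2 range of the 16 tested members was 0.51 and that of all 4411 tested probe sets was 0.53, and 6 of the 16 (37.5%) were above the latter. A range over 2-fold was reached by 2 of the 16, both of Dusp1, where 11.3% of all tested probe sets did so (3 of the 21 with the untested ones, the third being Fos X06769cds_at). On arrays B and C the shares over 2-fold were 8.60% and 7.31% of tested probe sets. Klf3 rc_AI059323_at on B had a log2 range of 1.07, as wide as or wider than all but 7.25% there. Fos rc_AI176185_at on C had 1.08, and 6.11% of tested probe sets were as wide, but without kidney 1 it was 0.54.

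No kidney of array A was high or low for all members. Kidneys 1 and 5 were highest for 6 of the 21 probe sets each, kidney 4 for 4, kidney 3 for 3 and kidney 2 for 2. The lowest value was in kidney 4 for 6, in kidney 2 for 5, in kidney 5 for 4, in kidney 3 for 3 and in kidney 1 for 1, with 2 tied at the floor. These counts include members under the filter. Among the 16 tested members the highest value was in kidney 5 for 5, in kidney 4 for 4, in kidneys 1 and 3 for 3 each (18.8%) and in kidney 2 for 1. The lowest was in kidneys 2 and 4 for 5 each (31.2%), in kidney 5 for 3, in kidney 3 for 2 and in kidney 1 for 1. Among all tested probe sets of A the highest value was in kidney 1 for 14.7%, in kidney 3 for 26.9% and in kidney 5 for 20.5%, and the lowest in kidney 4 for 28.5% and in kidney 1 for 20.0%.

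Co-variation was described by the order of the kidneys: the 5 kidneys form 10 pairs, and 2 genes were compared by the number of pairs they put in the same order, after averaging the log2 deviations of each gene's probe sets. With 5 kidneys no correlation was computed, and these counts carry no test. Fos and Myc put all 10 of 10 pairs in the same order, kidneys 1 and 5 on top (deviations of 0.46 and 0.29 for Fos, 0.35 and 0.11 for Myc) and kidneys 2 and 4 at the bottom (−0.27 and −0.35 for Fos, −0.25 and −0.30 for Myc). Atf3 shared 9 of 10 pairs with Fos and 9 of 10 with Myc, and Jun and Junb shared 9 with each other. Fos and Junb shared 7 and Fos and Egr1 5. Nr4a1 ran opposite to Fos and Myc in all 10 pairs (0 in the same order with each) and shared 1 with Atf3. Its deviations in kidneys 1 to 5 were −0.163, 0.099, 0.095, 0.125 and −0.156. Kidneys 1 and 5 were thus almost level, as were kidneys 2 and 3, and the 2 Nr4a1 probe sets agreed in 6 of 10 pairs. Each of these orders for Fos and Myc includes 1 probe set with values at the floor, which has no order there. For Fos that probe set is X06769cds_at, with a log2 range of 1.58 against 0.65 and 0.47 for the other Fos probe sets. An order of Fos without it is not given. Without X03347cds_g_at, which had no value below the floor, the order of Fos shared 9 pairs with Myc, 8 with Atf3 and 1 with Nr4a1. The order of Myc Y00396mRNA_g_at alone, which also had no value below the floor, shared 10 with Fos, 9 with Atf3 and 0 with Nr4a1. Dusp1 shared 3 with Fos, 2 with Atf3, 2 with Egr1 and 7 with Nr4a1.

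The 2729 other named genes tested on array A give the background to these counts. Against Fos their median was 5 of 10 pairs in the same order, 11.1% reached 8 or more, 0.879% reached 10 and 0.550% had 0. Against Dusp1, 9.75% reached 8 or more and 21.8% had 2 or fewer. The probe sets of a single gene often put the kidneys in different orders: over 21 pairs of probe sets of the same gene the median was 6 (from 2 to 9) with 14.3% at 8 or more, and over 189 pairs of different genes it was 5 (from 0 to 10) with 11.1%, where a pair of kidneys both at the floor counted as not in the same order. Between Egr1 probe sets AF023087_s_at and rc_AI176662_s_at 2 of 10 pairs agreed. The order given for a gene carries this spread between its own probe sets, and neighbouring kidneys in an order have no replicate array that would tell them apart.

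**Figure D2:**
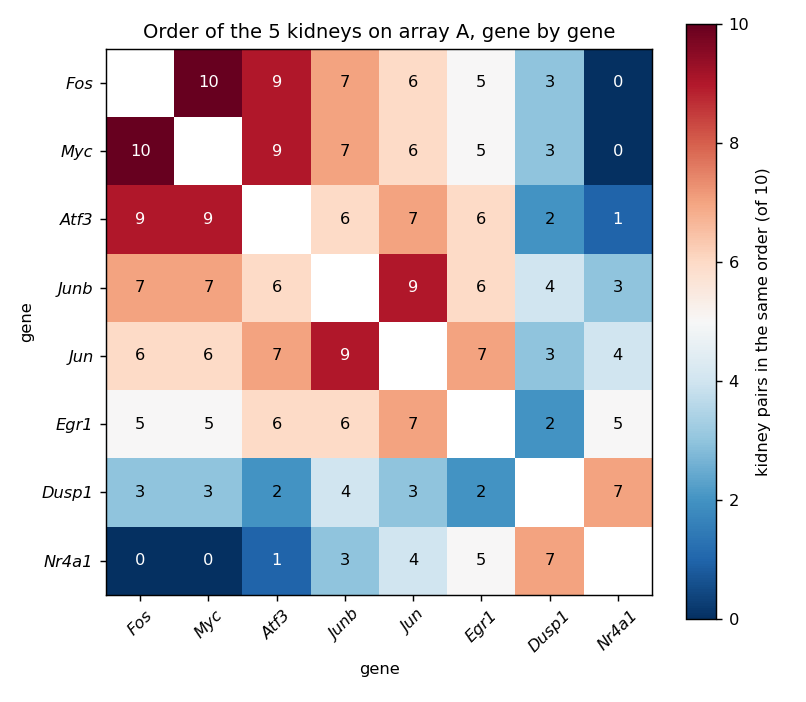
Number of the 10 kidney pairs that 2 member genes put in the same order on array A, from the mean log2 deviation of each gene's probe sets. The colour runs from 0 (all pairs opposite) to 10 (all pairs the same): Fos, Myc and Atf3 share 9 or 10, Jun and Junb share 9, and Nr4a1 shares 0 or 1 with the first group.

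Control probe sets for the sense strand, to which labelled kidney RNA should not bind specifically, were compared in the same way. That of the 3′ end of beta-actin measured 317.3, 53.4, 176.6, 106.2 and 259.4 in kidneys 1 to 5 of array A, with kidney 2 below the floor. It shared 7 pairs with Fos X06769cds_g_at, 8 with Fos X03347cds_g_at and 9 with Myc Y00396mRNA_g_at. The sense probe set of the 5′ end of beta-actin was below the floor on all 5 arrays, so it has no order. Those of GAPDH shared 2 to 7 pairs with these 3 probe sets, and that of the middle of beta-actin shared 6 to 8. On array C, Fos rc_AI176185_at shared 8 pairs with the sense probe set of the GAPDH 3′ end. It shared 7 with that of the middle of beta-actin, 6 with that of its 3′ end and 5 with each of the other GAPDH ones. The part of such unspecific signal in the Fos and Myc values was not tested.

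Fos kept much of its kidney order on the other design that measures it. By kidney number, array A and array C agreed for Fos in 9 of 10 pairs, while 429 other named genes tested on both had a median of 6, and 18.6% of them reached 8 or more. On array C only rc_AI176185_at gave an order, since rc_AI072183_at was below the floor throughout. It shared 9 pairs with X06769cds_g_at, 8 with X06769cds_at and 8 with X03347cds_g_at, and 10 with the mean order of Fos without the last of these. Dusp1 agreed in 3 pairs between A and B, where most of its values were under the floor. Klf3 agreed in 8 pairs between B and C, and 18.7% of 599 other genes reached 8 or more. The labels do not say that a number is the same kidney on each design. Across the 429 genes, deviations of array A and array C correlated within the same number with Pearson's r = 0.188 for kidney 1 and 0.307 for kidney 4, and with 0.00592 to 0.0931 for the other numbers, against −0.277 to 0.0840 between unlike numbers; this is a correlation across genes, which are not independent replicates.

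Most tested probe sets of genes that mark injured tubules followed the kidney order of Fos and Myc. Of 9 tested probe sets of this list on array A (7 of the 9 genes), 7 put 8 or more pairs in the order of Fos and 1 put 2 or fewer. The counts with Myc have to be the same, since Myc has the kidney order of Fos. Of the other named genes tested on array A, each averaged over its probe sets, 11.1% reached 8 or more pairs with Fos. The list was counted by single probe sets, so the units of these shares differ. Clu, a chaperone secreted by damaged tubules, measured 10040.4, 2976.5, 4605.0, 2409.4 and 4555.3 in kidneys 1 to 5. Timp1, an inhibitor of matrix proteases, measured 735.6, 307.3, 593.1, 127.1 and 438.9 with probe set rc_AI169327_g_at, and Spp1 (osteopontin) measured 18426.6, 12077.2, 8198.7, 7770.0 and 17250.6. All 3 were highest in kidney 1 and lowest in kidney 4. The keratin Krt18 went another way and was highest in kidney 4 in its 2 tested probe sets. Krt18 rc_AI072634_at measured 754.8, 536.7, 725.9, 873.4 and 765.0, and X81448cds_at measured 499.6, 544.8, 602.1, 633.7 and 565.1. The median log2 deviation of the list was 0.47, −0.23, 0.08, −0.43 and 0.08 in kidneys 1 to 5, where that of all tested probe sets was between −0.04 and 0.04.

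Most tested probe sets of leukocyte markers did the same. On array A 5 of the 6 tested probe sets shared 8 or more pairs with Fos, and the median deviation of the list was 0.37, −0.13, 0.04, −0.31 and 0.07. The 6 come from 3 genes, and most of them are of Cd74, so they are not separate markers. The exception, Cd74 X14254cds_g_at, measured 6868.6, 7538.0, 4917.9, 4633.0 and 5384.2, highest in kidney 2. Among other named genes, each averaged over its probe sets, 11.1% reached 8 or more pairs with Fos. Lyz2, the lysozyme of macrophages, measured 6380.0, 3072.3, 5320.1, 4730.6 and 6201.9. Summed over the 10 probe sets of the 4 leukocyte genes of array A (of 9 listed), signal was 33841.5, 25030.5, 26249.6, 21435.9 and 28174.1, and none of the 4 was below the floor on all arrays. On array B the leukocyte markers ran alike by number, with medians of −0.47 and 0.07 in congenic kidneys 4 and 5 and 0.42, −0.27 and 0.17 in Dahl S kidneys 1 to 3, but on array C they did not (0.30 and 0.10 in congenic, −0.02, −0.17 and 0.15 in Dahl S). Of 17 tested probe sets of kidney epithelial markers on A, none shared 8 or more pairs with Fos and 6 shared 2 or fewer. The part of leukocytes in the values of Fos, Myc and Atf3 was not tested.

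The other marker lists of array A had these median deviations in kidneys 1 to 5. Blood markers (5 tested probe sets) had median deviations of 0.08, −0.15, −0.02, 0.01 and 0.21, endothelial markers (3) of −0.02, −0.15, 0.12, −0.14 and 0.24, and smooth muscle and mesangial markers (7) of 0.10, −0.06, −0.03, −0.04 and 0.10. The 2 tested adrenal probe sets had −0.13, 0.09, 0.07, −0.10 and 0.08, and the 1 tested adipose probe set, of Lep, had 0.37, 0.21, −0.26, −0.12 and −0.21. Of the 8 adrenal genes listed, 6 had a probe set, and their summed signal was 1013.5 to 1490.2. Star, the cholesterol carrier, was below the floor on all 5 arrays, Cyp11b2 measured 21.3 to 86.2, Dbh 85.2 to 188.6, Cyp11a1 100.2 to 358.6, Cyp21a1 262.1 to 424.1 and Th M10244_at 376.3 to 671.6. Of the 5 adipose genes listed, 4 had a probe set, with a summed signal of 4805.2 to 7015.2, most of it from Lep D49653_s_at at 4088.0 to 6334.0, while the other Lep probe sets measured 71.2 to 146.6 and 194.4 to 304.5. Plin1, a lipid droplet protein, was below the floor on all 5 arrays, Fabp4 measured 113.8 to 271.2 and Cfd 51.6 to 167.2. The part of adrenal or fat tissue in the members' values was not tested.

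A wider list of 68 early response genes did not follow any of these patterns as a group. On array A 45 of them had a probe set and 31 genes were tested with 49 probe sets, whose median deviation was between −0.04 and 0.04 in every kidney, as that of all tested probe sets was. Of the 49, 6 shared 8 or more pairs with Fos and 6 shared 2 or fewer; with Dusp1 the counts were 5 and 12. Zfp36, which destabilises mRNAs of cytokines, measured 595.6, 481.6, 1226.7, 755.4 and 863.3, and Egr4, a relative of Egr1, measured 318.2, 233.4, 525.9, 253.4 and 496.6. Both were highest in kidney 3 and lowest in kidney 2, the order that Jun and Junb also had at those ends. The Egr4 values are those of probe set rc_AI144873_at. The brighter Egr4 probe set rc_AI145177_f_at measured 1753.3, 1662.9, 1926.1, 1329.7 and 1860.5, highest in kidney 3 but lowest in kidney 4. Of the 13 tested probe sets of upstream kinases and factors on A, which come from 4 genes, 6 shared 8 or more pairs with Dusp1 and 1 with Fos. The list's median deviation was 0.06, 0.11, −0.15, 0.12 and −0.09. The stress kinase Mapk14 (p38) measured 519.1, 649.6, 341.8, 433.5 and 531.1 with the dim probe set U91847_s_at, highest in kidney 2. Its brighter probe set rc_AI137862_s_at measured 4728.6, 4779.4, 3943.7, 4939.5 and 3828.1, highest in kidney 4.

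Errfi1, a feedback inhibitor of the EGF receptor that is itself an early response gene, had the widest range of that list and peaked with Dusp1. Its probe set X07266cds_s_at measured 879.9, 1033.7, 825.1, 1969.9 and 251.7 in kidneys 1 to 5 of array A, a log2 range of 2.97, and its probe set rc_AI169756_s_at measured 1909.8, 2131.7, 2025.9, 3170.3 and 1310.4. Both were highest in kidney 4 and lowest in kidney 5. On array C, Errfi1 rc_AI169231_s_at measured 5954.6 and 3659.3 in congenic kidneys 4 and 5, against 4552.7, 4504.0 and 4594.8 in Dahl S kidneys, so the congenic kidneys lay on either side of the others. Pck1, the gluconeogenic enzyme that glucocorticoids and acidosis induce in kidney, measured 5048.4, 5358.1, 4801.6, 14299.4 and 5010.2 on array A. On array C it measured 41283.9 and 18562.3 in congenic kidneys, against 23614.9, 22091.4 and 23169.8 in Dahl S kidneys. The other tested glucocorticoid gene of A, the kinase Sgk1, measured 1539.7, 1489.0, 1327.7, 1352.6 and 1333.5, with no peak in kidney 4.

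**Figure D3:**
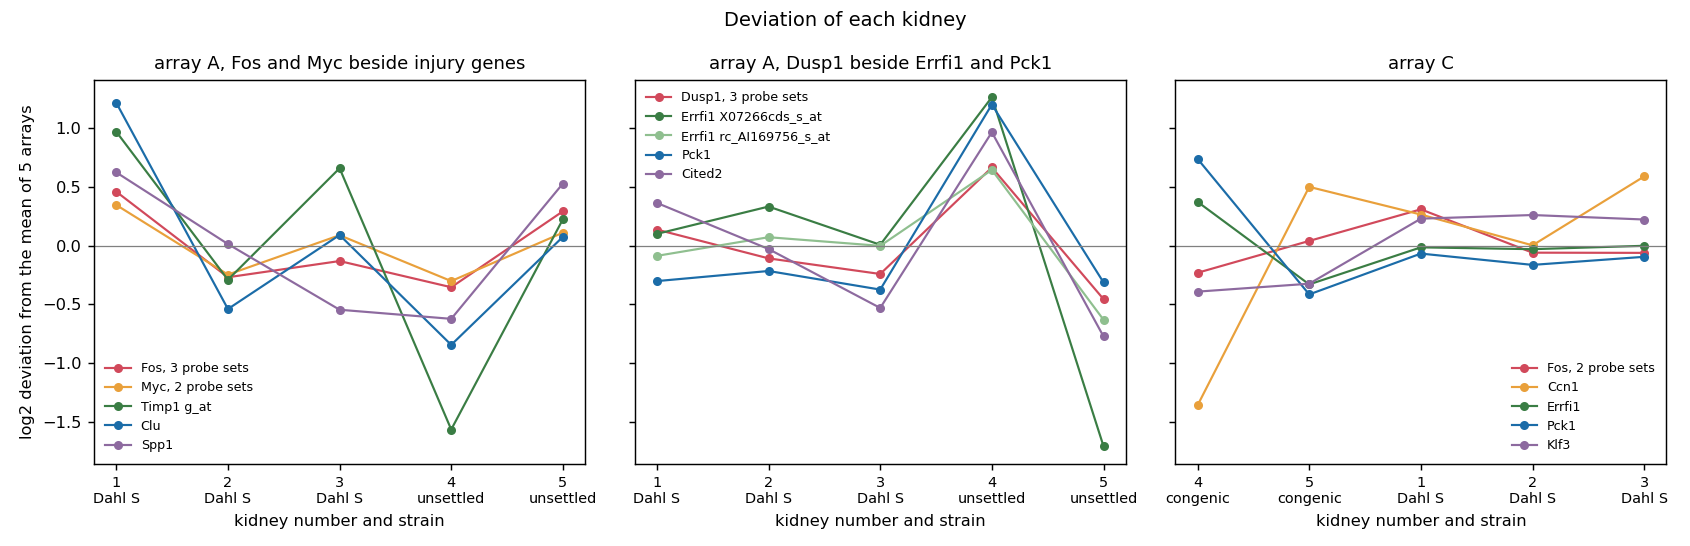
Log2 deviation of each kidney from the mean of the 5 arrays of a design, for members (mean over their probe sets) and for single probe sets of other genes; 1 array per kidney, with the strain under the kidney number. On array A, Fos and Myc have kidneys 2 and 4 lowest as Clu does, and Dusp1 peaks in kidney 4 with Errfi1, Pck1 and Cited2. On array C, kidney 4 is highest for Errfi1 and Pck1 and lowest for Ccn1 and Fos.

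Of the response lists, heat shock genes and chaperones (20 tested probe sets of A) had median deviations of 0.14, 0.10, −0.03, −0.10 and −0.01, and genes of hypoxia (18) had −0.04, 0.06, 0.09, −0.01 and −0.08. The chaperone Hsph1 measured 438.7, 516.6, 222.7, 426.0 and 510.5 with probe set AA108277_at, lowest in kidney 3. Its brighter probe set rc_AI236601_at went the other way, with 2218.8, 1893.6, 2586.7, 1905.0 and 2071.1, highest in kidney 3. Vegfa M32167_at, the endothelial growth factor, measured 239.4, 561.0, 216.0, 480.9 and 314.1, lowest in kidney 3. With Fos, 2 of the 20 heat shock probe sets and 1 of the 18 hypoxia probe sets shared 8 or more pairs. The 2 tested probe sets of the glucocorticoid list had medians of −0.08, −0.07, −0.23, 0.57 and −0.19, the 0.57 of kidney 4 coming from Pck1.

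The named genes most like Dusp1 U02553cds_s_at on array A were chosen by the root mean square distance between log2 profiles over the 5 kidneys, each centred on its mean, among 3668 named probe sets. They were Cited2 (distance 0.234), a transcriptional co-regulator, Aplp2 (0.274), Gm2a (0.285), Psmb4 (0.318) and Slc12a3 (0.343), the thiazide-sensitive cotransporter of the distal tubule, where the median distance was 0.770. Cited2 measured 1088.3, 829.2, 585.9, 1651.3 and 495.4 in kidneys 1 to 5, and Slc12a3 rc_AA965132_s_at measured 732.8, 787.9, 747.9, 2241.4 and 552.7. The brighter Slc12a3 probe set U10097_at measured 3227.7, 5037.5, 4939.0, 4180.8 and 3373.1, highest in kidney 2 and without a peak in kidney 4. Each of the 5 chosen probe sets was highest in kidney 4. This follows from choosing them by likeness to Dusp1 over these kidneys and is no result about them.

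Between the strains, no member passed the threshold on array B or C. Of all tested probe sets, limma with Benjamini-Hochberg adjustment called 4 of 4385 on array B (0.0912%) and 0 of 4420 on array C (0%) at an adjusted p of 0.05, and of the members 0 of 2 on B and 0 of 1 on C. Before adjustment, 153 probe sets of B (3.49%) and 274 of C (6.2%) had a p under 0.05, with 0 members on B and 1 member on C, Klf3.

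Klf3, the repressor, was the member tested in both designs. On array C its probe set rc_AI233750_at measured 458.8 and 480.7 in congenic kidneys, against 705.4, 720.7 and 701.9 in Dahl S kidneys. The groups do not overlap and are each tight, at 469.8 ± 15.5 (SD, n = 2) and 709.3 ± 10.0 (SD, n = 3), and 22.4% of the tested probe sets of C also had strain values that did not overlap. The log2 difference was −0.59 (SE 0.13), 1.51-fold lower in the congenic kidneys, and it did not pass (limma adjusted p = 0.739). Over 12 settings the difference stayed between −0.63 and −0.56 with an adjusted p of 0.0963 to 0.995, and it was not tested with the filter at the 75th percentile.

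The Klf3 probe sets of array B overlapped between the strains. Probe set rc_AA956804_at measured 1460.0 and 1811.6 in congenic kidneys, against 1926.3, 1593.6 and 1921.6 in Dahl S kidneys (1636 ± 249 and 1814 ± 191, SD; log2 difference −0.15, SE 0.17, limma adjusted p = 0.998). Probe set rc_AI059323_at measured 977.1 and 1389.6 in congenic kidneys, against 878.3, 1846.4 and 1490.6 in Dahl S kidneys (1183 ± 292 and 1405 ± 490, SD; log2 difference −0.20, SE 0.33, limma adjusted p = 0.998). Kidneys 1 and 4 were the low ones in the second, 1 of each strain. Without congenic kidney 4 both differences turned, to 0.0038 and 0.050, and without Dahl S kidney 2 the second turned to 0.026.

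**Figure D4:**
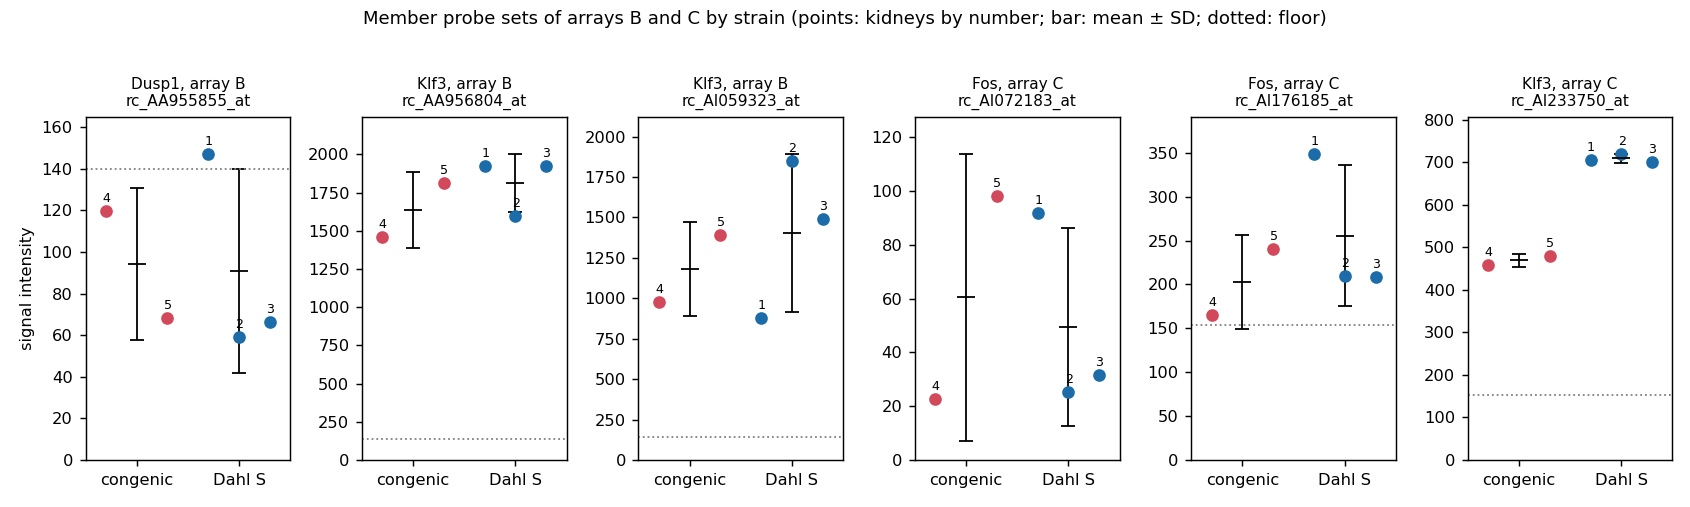
Signal intensity (linear axis from 0) of the 6 member probe sets of arrays B and C, congenic kidneys left and Dahl S kidneys right. Points are single kidneys with their numbers, bars are the mean ± SD (n = 2 congenic, n = 3 Dahl S) and the dotted line is the floor of the design. The strains are apart for Klf3 on array C and overlap in the other 5 panels.

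The profiles nearest to Klf3 on array C had low values in both congenic kidneys, as Klf3 did. They were chosen by likeness to Klf3 over these same kidneys, so this is no result about them. Among 3505 named probe sets they were Ehd4 (distance 0.0391, median of all 0.321), an endocytic recycling protein, Hnrnpa3 (0.0524), Nsf (0.0747), an ATPase of vesicle fusion, Rab2a (0.0809) and Suz12 (0.0990), a Polycomb subunit. Ehd4 measured 869.2 and 976.1 in congenic kidneys, against 1388.5, 1436.7 and 1435.3 in Dahl S kidneys. On array B the profiles nearest to Klf3 rc_AI059323_at were Vasn (0.0554, median 0.426), Plcd3 (0.141), Pafah1b1 (0.143), Npas2 (0.155) and Xab2 (0.155), among 3329. Vasn measured 761.4 and 975.1 in congenic kidneys, against 632.8, 1348.6 and 1138.8 in Dahl S kidneys.

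The wider early response list gave no call between the strains. On array B 0 of 8 tested probe sets passed (3 with a positive and 5 with a negative difference, median −0.07, where that of all tested probe sets was −0.0052), and 1 of the 8 (12.5%) had strain values that did not overlap, against 17.2% of all. On array C 0 of 14 passed (5 positive, 9 negative, median −0.04, where that of all was −0.0099), and 4 of the 14 (28.6%) did not overlap, against 22.4% of all. Rhob, a small GTPase induced early after stress, measured 576.1 and 1046.9 in congenic kidneys, against 1103.5, 532.3 and 911.0 in Dahl S kidneys of array B. Ccn1, a secreted matrix protein, measured 287.7 and 1043.1 in congenic kidneys, against 886.1, 738.9 and 1109.1 in Dahl S kidneys of array C, and Klf9, a Krüppel-like factor induced by glucocorticoids, 242.9 and 575.3 against 482.2, 784.6 and 528.4. For Rhob, Ccn1 and Klf9 congenic kidney 4 was far below congenic kidney 5, so the congenic values spread more widely than the strains differed. Bcl6, a transcriptional repressor, was the 1 probe set of the list with a p under 0.05 before adjustment: rc_AI237606_at measured 723.3 and 833.8 in congenic kidneys, against 550.4, 393.4 and 487.8 in Dahl S kidneys of array C. The strains do not overlap there, and the log2 difference of 0.72 (SE 0.18) did not pass (limma adjusted p = 0.739). The kinases Plk2 and Plk3 were the other two of the 3 widest on array B. Plk2 measured 814.4 and 701.2 in congenic kidneys, against 761.9, 483.0 and 743.3 in Dahl S kidneys. Plk3 measured 2409.1 and 3253.0 in congenic kidneys, against 2029.0, 2431.8 and 2160.6 in Dahl S kidneys.

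Upstream kinases and factors gave 0 calls among 6 probe sets on B and 7 on C, genes of hypoxia 0 among 3 and 5, and glucocorticoid genes 0 among 3 on C. Heat shock and tubular injury genes had 1 tested probe set each on C and no call. Elk1, a factor that acts on the CArG box with serum response factor, measured 1066.8 and 938.8 in congenic kidneys, against 56.4, 1087.8 and 1069.8 in Dahl S kidneys of array B (probe set rc_AA946074_at), where kidney 1 alone was below the floor. Ddit4, an inhibitor of the growth kinase mTOR, measured 321.1 and 900.0 in congenic kidneys, against 739.2, 678.1 and 474.8 in Dahl S kidneys of array C. Timp1 on C measured 1413.9 and 3398.7 in congenic kidneys, against 1752.6, 2179.1 and 3086.4 in Dahl S kidneys, again lowest in kidney 4 but highest in kidney 5. Laptm5, a lysosomal protein of leukocytes, measured 1412.6 and 2861.9 in congenic kidneys, against 2967.4, 1515.2 and 2775.5 in Dahl S kidneys of array B. Cd3e, a subunit of the T cell receptor complex, measured 1313.2 and 1039.0 in congenic kidneys, against 922.0, 861.9 and 781.7 in Dahl S kidneys of array C, where the strains do not overlap (log2 difference 0.45, limma adjusted p = 0.775). Podxl, a surface protein of podocytes, measured 5105.7 and 3188.2 in congenic kidneys, against 2469.1, 2550.9 and 3010.4 in Dahl S kidneys of array B (log2 difference 0.60, limma adjusted p = 0.998). On array C it measured 1887.1 and 1245.6 in congenic kidneys, against 1156.5, 1326.6 and 777.4 in Dahl S kidneys, and there the strains overlap. Mt2A, a metallothionein induced by glucocorticoids, measured 1437.9 and 1250.9 in congenic kidneys, against 1064.8, 994.0 and 1076.1 in Dahl S kidneys of array C, without overlap (log2 difference 0.36, limma adjusted p = 0.775). Tek, a receptor kinase of endothelium, measured 1443.3 and 1320.9 with rc_AA957010_at in congenic kidneys, against 795.1, 1313.8 and 1050.3 in Dahl S kidneys of array B, without overlap (log2 difference 0.42, limma adjusted p = 0.998). Tek rc_AI058402_at did overlap there, with 621.4 and 535.3 against 531.4, 665.2 and 515.8 (log2 difference 0.024). Of all tested probe sets, 17.2% on array B and 22.4% on array C had strain values that did not overlap.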

How the data were processed

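The deposited values are a signal intensity per probe set, linear and never negative, from total RNA of 15 arrays, per the file headers and labels. The software that made these intensities is not given in the sources used here; no build is named. The members and gene lists were chosen with earlier results of these data known.

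Each design was processed alone: values were raised to the 25th percentile and taken to log2, probe sets with a mean under the median and the 59 control probe sets were left out, and gene symbols came from the platform annotation, updated to RefSeq (GRCr8). Of the probe sets of A, B and C, 7018, 5363 and 5833 had 1 symbol (6994, 5342 and 5813 matched to RefSeq), 308, 38 and 45 had several and were not named, and 1473, 3390 and 2911 had none. Strains were compared on B and C with limma 3.58.1 (lmFit, then eBayes; R 4.3.3) and Benjamini-Hochberg adjustment over all tested probe sets (threshold 0.05), as congenic minus Dahl S. The rule for other genes named called list members or, without a call, the 3 of widest log2 range per list and design, and the 5 nearest profiles to the widest member; only part of the list members so named are given with values, a choice made after those values were seen, and every list is given by its counts. In simulations with 200 changed probe sets the fit recovered 82.7% of log2 changes of 1 on array B (4385 probe sets) and 89.6% on array C (4420 probe sets). Every simulated probe set had the same normal scatter, whereas the scatter of the real ones differs. These shares therefore do not tell how many real changes of that size would be called. Alternatives changed the normalisation, floor, filter, variance model and arrays. The number of arrays limits the precision.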

Additional observations from a re-analysis of the deposited data

Results flagged for a closer look

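The 2 kidneys of array A whose strain is unsettled entered no comparison. In one of them, kidney 4, Dusp1 U02553cds_s_at measured 709.6, against 407.8 in the highest Dahl S kidney of that array, a ratio of 1.74. This passed the ratio of 1.5 above which such a value was listed. The other kidney of unsettled strain, kidney 5, had the lowest value of this probe set, 175.3. The difference was not tested.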

How the results depend on the processing

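No member was called on array B or C under any of the alternatives run. The number of probe sets called on array B was 4, and it was 1 with median scaling, quantile normalisation, the floor moved to the 10th or the 40th percentile, the filter moved to the 75th, or array weights. It was 0 to 31 when 1 array was left out in turn (31 without congenic kidney 5, 0 without any 1 of the Dahl S kidneys). On array C it was 0 (274 at an unadjusted p under 0.05), 2 without a filter, 1 with an intensity trend and robust variance, and 0 to 34 when 1 array was left out (34 without congenic kidney 5). The log2 difference of Klf3 rc_AA956804_at on array B, −0.15, was −0.31 to 0.0038 when 1 array was left out (0.0038 without congenic kidney 4). That of Klf3 rc_AI059323_at, −0.20, was −0.51 to 0.050 (0.026 without Dahl S kidney 2 and 0.050 without congenic kidney 4). The cause was not tested. The log2 range of Fos X06769cds_at, 1.58, was 2.62 with the floor at the 10th percentile and 0.35 at the 40th, and that of Myc Y00396mRNA_at, 0.43, was 2.15 and 0. Leaving out 1 kidney at a time for the log2 ranges, and 1 probe set for the orders of Fos and Myc, was chosen after seeing the data. No paired analysis was possible because the strains compared share no kidney number within a design. With 2 congenic arrays per design and 1 array per kidney, small differences could not be detected.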
